A study of Mus musculus with 9 samples.

Results

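The tetraspanin family of the mouse ovary was described across whole ovaries of wild-type (WT, n = 5) and estrogen receptor beta knockout (ERβKO, n = 4) mice. Members were chosen by gene symbol, as all rows of the gene count table named Tspan followed by a number together with Cd9, Cd37, Cd53, Cd63, Cd81, Cd82 and Cd151. This gave 27 genes of 46078 in the table, 20 with a Tspan name and 7 with a CD name, and each symbol had 1 row. The summed count that was to decide between rows of the same symbol was therefore not needed. The family itself was chosen with earlier results of these data known. Of these, 26 passed the filter on low counts and were tested. The exception was Tspan10, which had between 0 and 2 counts in any ovary.

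Tetraspanins are small proteins that cross the membrane 4 times and gather other membrane proteins, among them integrins, immunoglobulin superfamily proteins and proteases, into larger assemblies. They are best known in the ovary for the oocyte surface, where Cd9 is needed for fusion with sperm and Cd81 contributes. A subgroup with a cysteine-rich large loop, the TspanC8 tetraspanins, escorts the protease ADAM10 out of the endoplasmic reticulum and affects which proteins it cleaves.

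All mice were labelled as strain C57BL/6J and as untreated, although the treatment text of the same labels describes a high-fat diet and injections of DPN, an ERβ agonist. The ERβKO mice lacked exon 3 of Esr2 in every tissue, after a floxed allele was recombined by a Rosa26-Cre deleter line, and the WT mice expressed ERβ. Age was given as one range for all mice of the study and not per ovary, and the ovaries were not synchronized for the estrous cycle. Each library held RNA of a whole frozen ovary, so that fewer cells of a type and less RNA per cell cannot be told apart. Nothing in the labels tied the WT and ERβKO mice of the same replicate number to each other.

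Library totals lay between 12353740 and 18717510 counts. Esr2 itself was read in both genotypes, at 17.8, 12.4, 14.9, 23.9 and 14.5 FPKM (read fragments scaled to gene length and library size) in WT ovaries and at 14.3, 16.2, 10.5 and 23.7 in ERβKO ovaries, so whole-gene values did not check the genotype labels (the loss of 1 exon was not measured here). WT replicate 2 stood apart from the other WT ovaries: on the first principal component, 35.9% of the variance, it lay at 9.43, with the other WT ovaries from -43.8 to -15.6 and the ERβKO ovaries from 19.4 to 35.3. Results that rest on this ovary are given with and without it below. Markers of granulosa, luteal, theca and oocyte cells were all present, as were those of oviduct and surface epithelium, whose 9 genes summed to between 1500 and 2670 FPKM in the WT and between 1810 and 2220 FPKM in the ERβKO ovaries. Insl3 (theca) and Cd3e (T cells) were listed at 0 in at least 1 ovary.

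Members of the family differed in level by orders of magnitude in the ovary. Mean FPKM over the 9 ovaries was above 50 for 4 members, between 10 and 50 for 10, between 5 and 10 for 7, between 1 and 5 for 4, and below 1 for 2. The family as a whole summed to 825 ± 45 FPKM (SD, n = 5) in WT and 800 ± 37 FPKM (SD, n = 4) in ERβKO ovaries, with ranges of 788 to 881 and 754 to 841 that overlapped. Cd81, Cd63, Cd9, Cd151 and Tspan3 made up between 65.2% and 69.4% of this sum in every ovary. Because FPKM is scaled to gene length, levels can be set beside each other between genes.

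**Figure D1:**
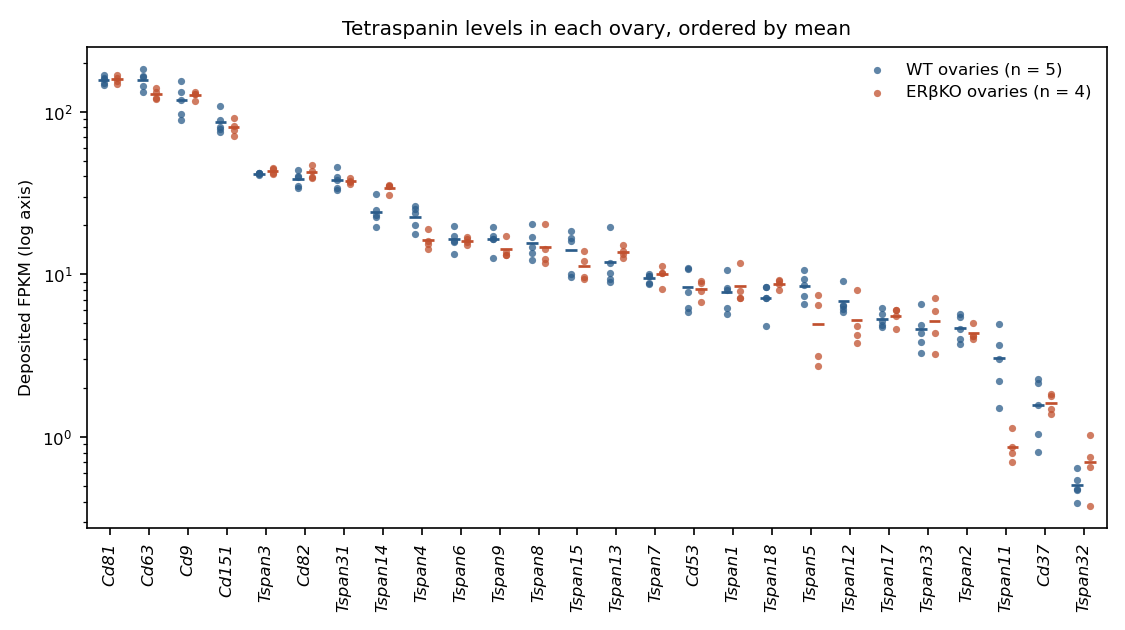
Deposited FPKM (log axis) of the 26 tested tetraspanins in each WT (blue, n = 5) and ERβKO (orange, n = 4) ovary, with a bar at each genotype's mean and genes ordered by their mean over all ovaries. Cd81 and Cd63 lead the family, Cd37 and Tspan32 close it, and Tspan11 is the member whose WT and ERβKO points do not overlap; Tspan10, listed at 0 FPKM in all 9 ovaries, is not drawn.

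Neighbours in this order were mostly not separable. The lowest ovary of a member lay above the highest ovary of the next in only 2 of the neighbouring pairs, Cd151 over Tspan3 and Tspan32 over the undetected Tspan10. Tspan31 exceeded Tspan14, and Cd37 exceeded Tspan32, in 9 of 9 ovaries although their ranges overlapped. All other neighbours changed places in at least 1 ovary.

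Between genotypes, 1 of the 26 tested members passed the criteria for a differentially expressed gene (an adjusted p under 0.05 in edgeR and a log2 fold change beyond 0.4 in either direction, for genes whose mean FPKM was above 1 in WT or in ERβKO ovaries). This was Tspan11, which was lower in ERβKO ovaries. Over all 16722 genes tested, 287 passed, which is 1.72%, with 0.915% higher and 0.801% lower in ERβKO ovaries, and the member's count is to be read against this share. Fold changes are given throughout as log2 of ERβKO over WT, from counts. By sign alone, 11 members had a higher and 15 a lower estimate, with a median log2 fold change of -0.03 beside -0.000894 over all genes tested. The median absolute log2 fold change of the members was 0.145, beside 0.151 over all genes.

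**Figure D2:**
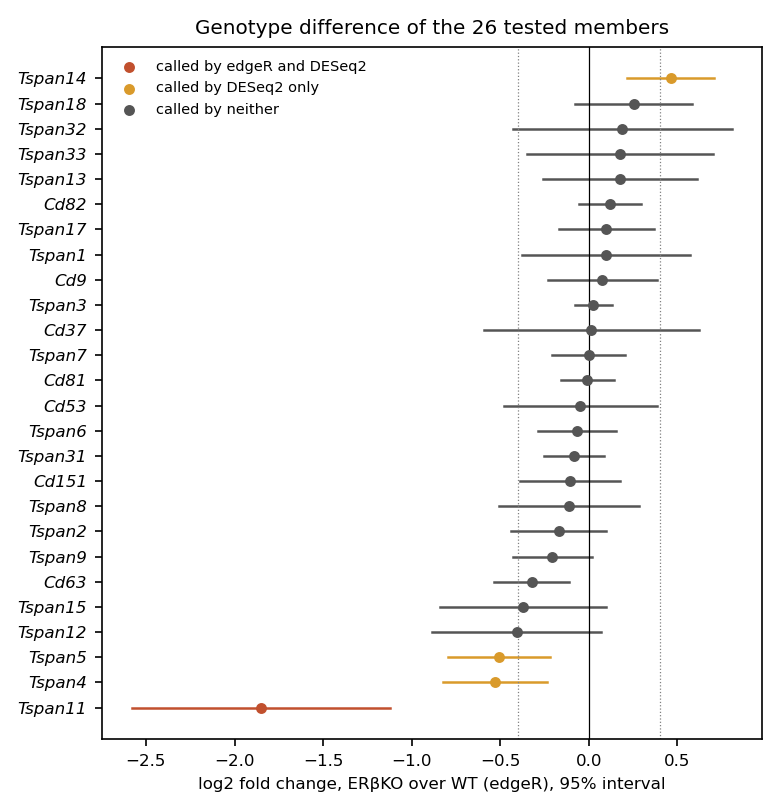
log2 fold change (ERβKO over WT, edgeR) with its 95% interval for each of the 26 tested members; dotted lines mark the fold limit of 0.4 in either direction. Tspan11, at -1.85, stands away from the family, and Tspan14, Tspan5 and Tspan4 were called by DESeq2 only.

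DESeq2, run on the same counts with the same limits, called 4 members, Tspan14 as higher and Tspan11, Tspan4 and Tspan5 as lower in ERβKO ovaries, where it called 4.66% of 17283 genes. Among genes whose mean FPKM was above 1 in either genotype, the FPKM of the genotypes did not overlap for 1 member, again Tspan11, beside 7.95% of 14864 genes. At an unadjusted p under 0.05 in edgeR there were 5 members, beside 19.8% of all genes. For 25 of the 26 members the 95% interval of the log2 fold change lay within 1 of zero.

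The start regions of 3 members described next are shown. Tspan11 was the member called by both tools, and Tspan5 and Tspan14 were TspanC8 tetraspanins called by DESeq2 only, with estimates of opposite sign. Tspan4, also called by DESeq2 only, is not shown. RefSeq start sites on GRCm38.p6 were matched by symbol for 26 of 27 members. Each stretch starts 250 bases before the RefSeq start and runs 5′ to 3′ on the strand of the gene, ending before the first annotated exon. Capitals mark the GC box GGGCGG on either strand.
Tspan11, chr6:127887372-127887588, plus strand: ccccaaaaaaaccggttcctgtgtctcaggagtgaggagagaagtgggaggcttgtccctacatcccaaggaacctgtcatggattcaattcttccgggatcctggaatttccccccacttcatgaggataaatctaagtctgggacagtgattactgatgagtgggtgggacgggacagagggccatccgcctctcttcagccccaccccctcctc
Tspan5, chr3:138741958-138742194, plus strand: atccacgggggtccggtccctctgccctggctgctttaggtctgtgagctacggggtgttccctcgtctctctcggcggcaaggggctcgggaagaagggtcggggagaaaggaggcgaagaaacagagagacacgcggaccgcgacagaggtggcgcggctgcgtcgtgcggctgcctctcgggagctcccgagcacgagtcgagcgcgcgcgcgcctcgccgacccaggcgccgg
Tspan14, chr14:40966897-40967146, minus strand: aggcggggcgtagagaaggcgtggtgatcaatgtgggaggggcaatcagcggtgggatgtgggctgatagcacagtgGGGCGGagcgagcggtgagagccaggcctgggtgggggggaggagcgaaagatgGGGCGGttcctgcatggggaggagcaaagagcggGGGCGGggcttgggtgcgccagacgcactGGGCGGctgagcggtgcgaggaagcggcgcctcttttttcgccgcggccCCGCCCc

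In the 250 bases before its RefSeq start, Tspan11 had 4 CpG dinucleotides, an observed to expected ratio of 0.22, while the ratio was 1.07 for Tspan5 and 0.86 for Tspan14. A ratio above 0.6 was found for 12 of 26 members and for 34% of 32851 windows of the same length. The GC box occurred in 14 of 26 members (53.8%) and in 32.7% of all windows, with 5 copies before Tspan14. Both strands were searched for every motif. The consensus estrogen response element, an inverted pair of half-sites with any 3 bases between them, was found before 0 of 26 members and in 0.0639% of all windows. Its half-site AGGTCA was found before Cd151 and Tspan7, 7.7% of members beside 14.0% of windows, and the longer CAAGGTCA, the site of NR5A receptors, which contains the half-site, before 0 members beside 1.33%. TATAAA was present before Tspan12 alone (3.8% of members, 12.4% of windows). These are counts of letters in a short window, and distal sites were not searched.

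Tspan11 (ENSMUSG00000030351, chromosome 6, 127887589 to 127953977 on the plus strand, GRCm38), a little-studied member of the family, was lower in ERβKO ovaries by a log2 fold change of -1.85 (SE 0.331, 95% interval -2.58 to -1.12, adjusted p = 0.0231, edgeR). Its FPKM was 3.67, 1.51, 4.93, 2.21 and 3.01 in WT replicates 1 to 5, and 1.13, 0.799, 0.868 and 0.702 in ERβKO replicates 1 to 4. Every WT ovary was above every ERβKO ovary, and the lowest WT ovary was replicate 2. The means were 3.06 ± 1.3 FPKM (SD, n = 5) and 0.874 ± 0.18 FPKM (SD, n = 4), a 3.51-fold difference. Scaled to library size (CPM), WT ovaries held 27.4, 10.3, 36.5, 16.4 and 22.5 and ERβKO ovaries 7.75, 5.81, 6.52 and 4.91, so the order was the same in the deposited counts and in the FPKM. The gene spans 66.4 kb with 5326 bases of merged exon, none of which overlap another annotated gene on the opposite strand.

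The direction for Tspan11 held in each of 19 alternative settings, and its adjusted p ran from 8.23e-07 to 0.116. With 1 ovary left out at a time the log2 fold change lay between -2.04, without WT replicate 2, and -1.61, without WT replicate 3. The adjusted p rose past 0.05 when WT replicate 1 (0.0632), WT replicate 5 (0.0561), ERβKO replicate 2 (0.0928), ERβKO replicate 3 (0.0624) or ERβKO replicate 4 (0.084) was left out, and was 0.00574 without WT replicate 2. Among the 7 ovaries with library numbers below 200, which leave out WT replicates 4 and 5, the log2 fold change was -1.97 with an adjusted p of 0.0828.

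Of the lists given here, granulosa and theca marker sums did not overlap between genotypes, while luteal, adipocyte and smooth muscle and stroma sums did. The 9 luteal markers summed to 5880, 2780, 3790, 4010 and 6480 FPKM in WT replicates 1 to 5 and to 2540, 2570, 3780 and 2710 FPKM in ERβKO replicates 1 to 4, with 8 of 9 lower by sign. Of these luteal genes 0 were called by edgeR, 5 were lower at an unadjusted p under 0.05 and 3 were called lower by DESeq2. WT replicate 2 had the lowest WT value of both Tspan11 and the luteal sum. The highest WT value was in replicate 3 for Tspan11 and in replicate 5 for the luteal sum. At luteal sums of 3790 and 3780 FPKM, WT replicate 3 and ERβKO replicate 3 had 4.93 and 0.868 FPKM of Tspan11. At sums of 2780 and 2710 FPKM, WT replicate 2 and ERβKO replicate 4 were closer, at 1.51 and 0.702 FPKM. Single pairs of ovaries do not test the part of luteal cells. The 10 granulosa markers were all higher by sign in ERβKO ovaries. Of these genes 3 were called by edgeR (Inhbb, Hsd17b1 and Kitl), 6 were higher at an unadjusted p under 0.05 and 6 were called higher by DESeq2. The granulosa sums were 833 to 1030 FPKM in the WT and 1110 to 1460 FPKM in the ERβKO ovaries. The 5 theca markers summed to between 462 and 723 FPKM in the WT and between 830 and 1710 FPKM in the ERβKO ovaries. Of these markers 4 were tested, 3 with a higher and 1 with a lower estimate (-0.0629), and 1 was called (Aldh1a1). Most of the theca sum was Aldh1a1 itself, with a WT mean of 521 FPKM and a knockout mean of 1092. Its log2 fold change was 1.05, while the 4 tested theca markers had a median of 0.541 and a highest estimate of 2.35. Among them 2 were higher at an unadjusted p under 0.05 in edgeR. The part of each gene in the separated theca sums was not tested. The 7 adipocyte markers ran from 137 to 262 FPKM and from 157 to 1020 FPKM, with 0 called by edgeR, all 7 higher at an unadjusted p under 0.05 and 3 called higher by DESeq2. The 8 smooth muscle and stroma markers summed to between 954 and 1520 FPKM in WT and from 1140 to 1240 FPKM in ERβKO ovaries, with 0 called by edgeR or DESeq2 and 1 higher at an unadjusted p under 0.05. The part of these cell types in the difference of any tetraspanin was not tested.

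**Figure D3:**
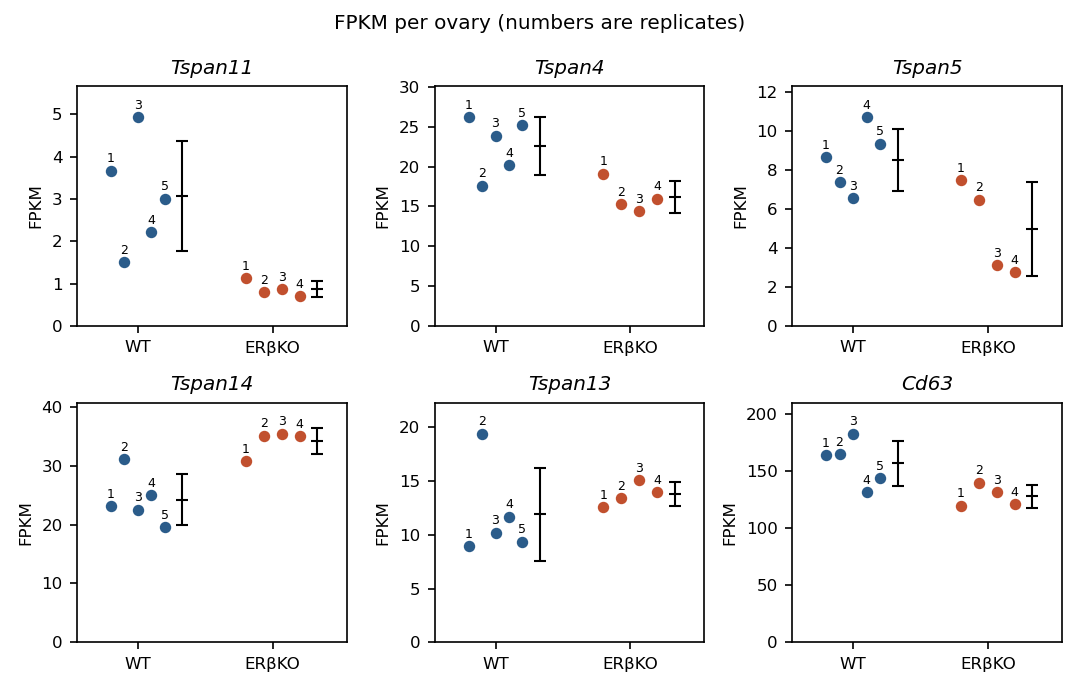
FPKM of 6 members in each ovary (points, numbered by replicate) with the mean and SD of each genotype beside the points; axes start at 0. Tspan11 is the panel without overlap between WT and ERβKO ovaries, and WT replicate 2 lies nearest to the ERβKO ovaries for Tspan11, Tspan4 and Tspan14.

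Tspan9, a tetraspanin of platelets among other cells, lies 7.4 kb from Tspan11 on the opposite strand, with the 3′ ends facing each other and no annotated gene between. Its FPKM was 16.4, 12.6, 19.4, 17.2 and 16.4 in WT and 17.3, 13.7, 13.2 and 13.1 in ERβKO ovaries, and the genotypes overlapped. The log2 fold change of Tspan9 was -0.21 (95% interval -0.426 to 0.0172, adjusted p = 0.289, edgeR). Of the 13 other tested genes within 500 kb of Tspan11, 0 were called by edgeR or DESeq2 and 2 had an unadjusted p under 0.05, with log2 fold changes from -1.13 (Cracr2a) to 0.567. The difference between Tspan11 and Tspan9 was not tested.

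The TspanC8 group had 1 estimate of note in each direction, and neither passed in edgeR (1 higher and 1 lower at an unadjusted p under 0.05, and 1 of each by DESeq2). Tspan14 (ENSMUSG00000037824), an ADAM10 escort, had 23.1, 31.1, 22.5, 25.0 and 19.6 FPKM in the WT and 30.7, 35.1, 35.4 and 35.0 FPKM in the ERβKO ovaries. All ERβKO ovaries lay above 4 of the 5 WT ovaries, and WT replicate 2 lay just above ERβKO replicate 1. The log2 fold change was 0.46 (SE 0.111, adjusted p = 0.0588, edgeR), and the mean was 1.40-fold higher in ERβKO ovaries (34.1 ± 2.2 against 24.2 ± 4.3 FPKM). DESeq2 gave an adjusted p of 0.0112, and edgeR without WT replicate 2 gave 0.00775 at a log2 fold change of 0.56, while the adjusted p over all alternatives ran up to 0.219.

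Tspan5 (ENSMUSG00000028152), another ADAM10 escort, had 8.64, 7.38, 6.55, 10.7 and 9.34 FPKM in the WT and 7.48, 6.48, 3.13 and 2.74 FPKM in the ERβKO ovaries. ERβKO replicates 3 and 4 were the low ones, while replicates 1 and 2 lay at or near the lower end of the WT range. The counts showed a narrower spread, at 40.5, 33.6, 38, 49.5 and 49.9 CPM in WT and 34, 29.7, 29.4 and 25.8 CPM in ERβKO ovaries. The log2 ratio of the mean FPKM was therefore -0.78, and the log2 fold change from counts was -0.51 (SE 0.131, adjusted p = 0.0738, edgeR). DESeq2 gave an adjusted p of 0.00948 and edgeR without WT replicate 2 gave 0.0225, in a range over all alternatives that reached 0.264.

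The other TspanC8 members were not called by either tool. Tspan15, which escorts ADAM10 toward cleavage of N-cadherin, had 14.2 ± 4.1 FPKM in the WT and 11.2 ± 2.2 FPKM in the ERβKO ovaries (log2 fold change -0.37, SE 0.212), and WT replicates 2 and 3, at 9.98 and 9.62 FPKM, were as low as ERβKO replicates 3 and 4. Tspan17 had 5.35 ± 0.62 and 5.56 ± 0.66 FPKM, and Tspan33 had 4.59 ± 1.3 and 5.18 ± 1.7 FPKM. Tspan10, known from pigmented cells, was listed at 0 FPKM in all ovaries. Summed over the group, TspanC8 levels were 47.6 to 64.6 FPKM in the WT and 56.3 to 66.8 FPKM in the ERβKO ovaries. Adam10 itself had a log2 fold change of -0.02 (SE 0.0873), with 32.8 ± 4.5 and 33 ± 0.76 FPKM. The difference between Tspan14 and Tspan5 in their response to genotype was not tested.

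Tspan4 (ENSMUSG00000025511), a tetraspanin of migrasomes, the vesicles left on the retraction fibres of migrating cells, had 26.2, 17.6, 23.9, 20.2 and 25.2 FPKM in the WT and 19.1, 15.3, 14.4 and 16.0 FPKM in the ERβKO ovaries. WT replicate 2 was below ERβKO replicate 1, and the other WT ovaries were above all ERβKO ovaries. The means were 22.6 ± 3.6 FPKM (SD, n = 5) and 16.2 ± 2.0 FPKM (SD, n = 4). Its log2 fold change was -0.53 (SE 0.133, adjusted p = 0.067, edgeR). DESeq2 gave an adjusted p of 0.00657 and edgeR without WT replicate 2 gave 0.0147, with values of up to 0.186 over the alternatives. Of the merged exon bases of Tspan4, 13.4% lie in exons of Chid1 on the other strand, and the strand setting of the counting was not given in the sources used here. Cd151 lies 3.8 kb upstream on the same strand.

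The 5 widely expressed CD tetraspanins supplied most of the family's RNA, and none was called by either tool (1, Cd63, was lower at an unadjusted p under 0.05). Cd81 (ENSMUSG00000037706), part of the B cell coreceptor and present on the egg, had 146, 160, 168, 150 and 158 FPKM in the WT and 155, 161, 168 and 148 FPKM in the ERβKO ovaries. These ranges were nearly the same, and the log2 fold change was -0.01 (SE 0.0671, 95% interval -0.156 to 0.141, adjusted p = 0.964, edgeR). Cd9 (ENSMUSG00000030342) had 96.6, 155, 131, 117 and 88.9 FPKM in the WT and 129, 129, 131 and 116 FPKM in the ERβKO ovaries. The ERβKO values lay inside the WT range, which was set by replicates 2 and 5, and the log2 fold change was 0.08 (SE 0.138, adjusted p = 0.801, edgeR). The 9 oocyte markers summed to between 39.4 and 122 FPKM in WT and from 83.8 to 158 FPKM in ERβKO ovaries, with 0 called by edgeR or DESeq2 and 0 at an unadjusted p under 0.05.

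Cd63 (ENSMUSG00000025351), a marker of late endosomes, lysosomes and exosomes, had 164, 165, 183, 132 and 144 FPKM in the WT and 120, 140, 132 and 121 FPKM in the ERβKO ovaries. WT replicate 4 fell within the ERβKO range, and the other WT ovaries lay above it. The log2 fold change was -0.32 (SE 0.0953, adjusted p = 0.105, edgeR), inside the fold limit of 0.4. DESeq2 gave an adjusted p of 0.041 for the same gene, in a range over the alternatives from 0.041 to 0.245. Cd151 (ENSMUSG00000025510), the partner of laminin-binding integrins, had 88.5, 75.4, 80.4, 78.6 and 108 FPKM in the WT and 70.6, 82.1, 91.0 and 77.0 FPKM in the ERβKO ovaries. Its genotypes overlapped over most of their range, and the log2 fold change was -0.11 (SE 0.127, adjusted p = 0.69, edgeR). Cd82, known as a suppressor of metastasis, had 38.4 ± 4.1 and 42.3 ± 3.6 FPKM (log2 fold change 0.12, SE 0.0796).

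Tspan3 (ENSMUSG00000032324) was among the steadiest members. It had 41.1, 41.9, 41.8, 41.9 and 40.7 FPKM in WT ovaries, a coefficient of variation of 1.37%, and 42.0, 44.9, 41.5 and 44.3 FPKM in ERβKO ovaries, a coefficient of 3.86%. WT replicate 2 did not depart from the other WT ovaries for this gene. The log2 fold change was 0.03 (SE 0.0476, 95% interval -0.0784 to 0.132, adjusted p = 0.797, edgeR).

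**Figure D4:**
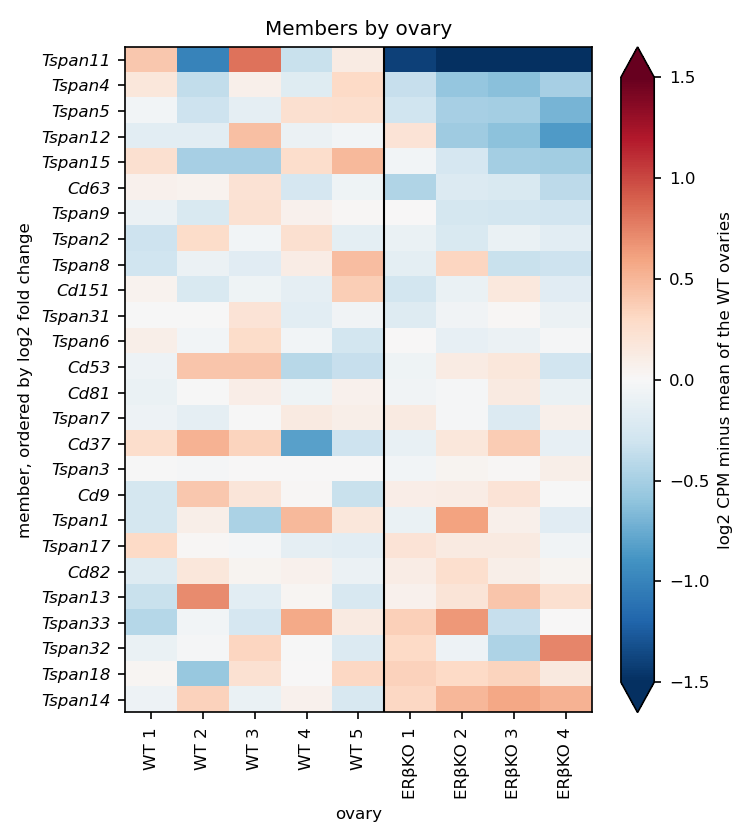
log2 CPM of each tested member in each ovary minus the mean of the 5 WT ovaries (red above, blue below; values beyond the colour scale take its end colours), with members ordered by log2 fold change and a line between genotypes. Tspan11 is lowest in the 4 ERβKO ovaries, followed by WT replicate 2, and Tspan13 is highest in WT replicate 2.

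None of the 3 leukocyte tetraspanins was called by either tool, and Cd37 and Tspan32 were low. Cd53 had 8.34 ± 2.5 FPKM in the WT and 8.14 ± 1.1 FPKM in the ERβKO ovaries (log2 fold change -0.05, SE 0.195). Cd37, a B cell tetraspanin, had 1.57 ± 0.65 and 1.62 ± 0.23 FPKM, from 30 to 88 counts per ovary, and Tspan32, found in blood cells, had 0.508 ± 0.095 and 0.705 ± 0.27 FPKM, from 12 to 32 counts. The 95% intervals of Cd37 (-0.594 to 0.621) and Tspan32 (-0.429 to 0.809) leave room for differences beyond the fold limit in both directions. The summed level of 11 leukocyte markers ran from 220 to 410 FPKM in the WT and from 268 to 433 FPKM in the ERβKO ovaries, with 0 called by edgeR or DESeq2 and 0 at an unadjusted p under 0.05.

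The remaining members were called by neither tool. Tspan31, whose gene adjoins Cdk4, had 38.0 ± 4.9 FPKM in the WT and 37.3 ± 1.3 FPKM in the ERβKO ovaries, but 29.2% of its merged exon bases are shared with Cdk4 on the other strand. Tspan6 had 16.5 ± 2.4 and 16.0 ± 0.76 FPKM, and Tspan7, an X-linked gene known for its role in neurons, had 9.43 ± 0.59 and 9.98 ± 1.3 FPKM with a log2 fold change of -0.000131 (SE 0.0931). The epithelial members Tspan8 and Tspan1 had 15.6 ± 3.2 and 14.7 ± 3.9 FPKM, and 7.76 ± 1.9 and 8.48 ± 2.2 FPKM, beside oviduct and epithelium marker sums that overlapped between genotypes.

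Tspan2, a gene of myelinating cells, had 4.71 ± 0.88 FPKM in the WT and 4.34 ± 0.48 FPKM in the ERβKO ovaries. Tspan18 had 7.18 ± 1.5 and 8.76 ± 0.59 FPKM, and its log2 fold change of 0.26 (SE 0.149, edgeR) moved to 0.14 without WT replicate 2, the ovary with the lowest level (4.79 FPKM). Tspan12, a component of the Norrin receptor complex with Fzd4 and Lrp5, had 5.88, 6.12, 9.15, 6.42 and 6.45 FPKM in the WT and 8.06, 4.79, 4.21 and 3.79 FPKM in the ERβKO ovaries. ERβKO replicate 1 lay among the WT ovaries and the other ERβKO ovaries below them all, and the log2 fold change was -0.41 (SE 0.216, adjusted p = 0.33, edgeR).

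WT replicate 2 weighed on the calls of the family. Leaving it out gave 5 called members, Tspan13 and Tspan14 as higher and Tspan11, Tspan4 and Tspan5 as lower in ERβKO ovaries, in a fit that called 912 of 16542 genes (5.51%). Tspan13 had 8.96, 19.4, 10.2, 11.7 and 9.38 FPKM in the WT and 12.6, 13.4, 15.1 and 14.0 FPKM in the ERβKO ovaries, so that WT replicate 2 was the highest of all 9. Its log2 fold change was 0.18 (SE 0.196, adjusted p = 0.66, edgeR) with this ovary and 0.40 (adjusted p = 0.0473) without it, the only setting of 19 that called it. Leaving out any of the other 8 ovaries gave either Tspan11 alone or no member.

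**Figure D5:**
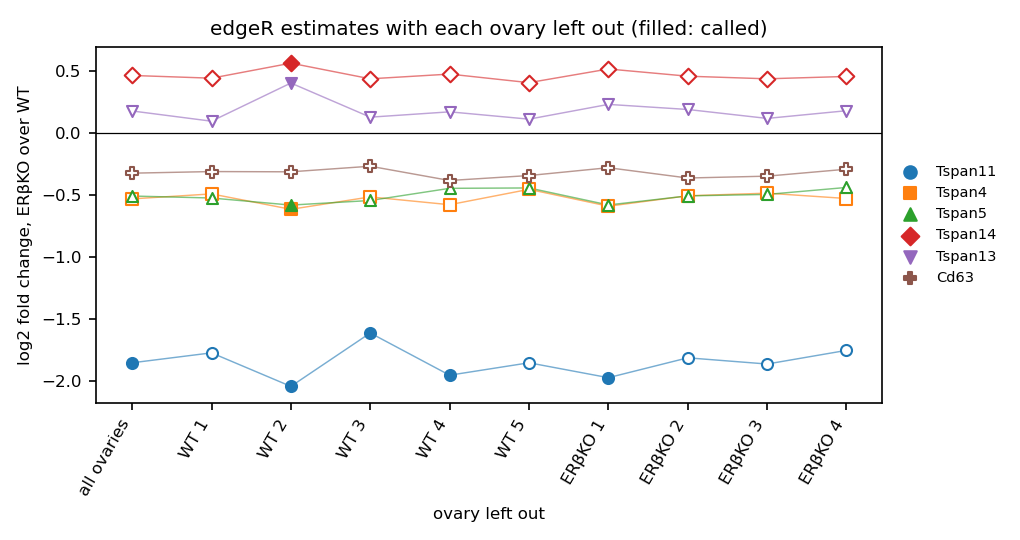
edgeR log2 fold change (ERβKO over WT) of 6 members from all ovaries and after the omission of each single ovary; filled symbols passed the criteria, open symbols did not. Tspan11 stays between -2.04 and -1.61 but is open in 5 of the 9 fits, and Tspan14, Tspan4, Tspan5 and Tspan13 are filled only without WT replicate 2.

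A list of 29 genes known to work with tetraspanins was examined beside the family, of which 28 were tested (Cr2 was too low). The list was chosen with earlier results of these data known, so its counts are not an independent comparison with the shares over all genes. In edgeR 3 were called higher and 0 lower in ERβKO ovaries (5 higher and 5 lower at an unadjusted p under 0.05), beside 1.72% of all genes called and 19.8% at that unadjusted p, with a median log2 fold change of -0.02 over the list. DESeq2 called 4 higher and 1 lower, beside 4.66% of all genes. Lrp5, the Wnt coreceptor in the Norrin complex, had 9.68, 6.58, 10.3, 8.57 and 7.67 FPKM in the WT and 12.5, 11.7, 12.2 and 12.2 FPKM in the ERβKO ovaries. The genotypes did not overlap, and the log2 fold change was 0.51 (SE 0.0767, adjusted p = 0.0127, edgeR). It was called in all 9 fits with 1 ovary left out, and it missed the threshold with limma on FPKM and in the ovaries with library numbers below 200 (adjusted p up to 0.128). Fzd4, the receptor beside it, had a log2 fold change of -0.04 (SE 0.18), and the ligand Ndp of 0.02 (SE 0.269).

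Zdhhc2, a palmitoyltransferase that modifies Cd9 and Cd151, had 3.96, 3.51, 4.11, 3.96 and 3.23 FPKM in the WT and 6.63, 5.51, 5.71 and 6.59 FPKM in the ERβKO ovaries. The genotypes did not overlap, and the log2 fold change was 0.64 (SE 0.0999, adjusted p = 0.0139, edgeR; 0.052 without ERβKO replicate 4). Vcam1, an adhesion receptor held in tetraspanin-rich membrane on endothelium, had 4.96, 5.87, 3.13, 2.9 and 3.07 FPKM in the WT and 4.47, 17.4, 12.7 and 20.3 FPKM in the ERβKO ovaries. ERβKO replicate 1 lay within the WT range and the other ERβKO ovaries above it, with a log2 fold change of 1.77 (SE 0.384, adjusted p = 0.046, edgeR). The call of Vcam1 held only without WT replicate 2 or without ERβKO replicate 1 among the fits with 1 ovary left out, and its adjusted p over all alternatives reached 0.209. The 8 endothelial markers summed to between 86.8 and 109 FPKM in WT and from 87.1 to 103 FPKM in ERβKO ovaries, with 0 called by edgeR, 1 higher and 1 lower at an unadjusted p under 0.05 and 1 called higher by DESeq2.

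DESeq2 alone called Cd36 (20.1, 24.5, 24.4, 28.9 and 15.4 FPKM in the WT, 67.1, 40.9, 41.3 and 22.3 FPKM in the ERβKO ovaries) as higher, beside the adipocyte markers given above, which were also highest in ERβKO replicate 1. It also called Itga4 as lower, with a log2 fold change of -0.50 in edgeR (SE 0.14, adjusted p = 0.0936). The direct partners of Cd9 and Cd81 were not called. Igsf8 had 8.64, 8.45, 9.31, 9.26 and 8.24 FPKM in the WT and 12.6, 10.9, 10.5 and 11.4 FPKM in the ERβKO ovaries without overlap, but its log2 fold change from counts was 0.26 (SE 0.0836, adjusted p = 0.133, edgeR). Ptgfrn had a log2 fold change of -0.15 (SE 0.0943). Among the integrins, Itgb1 had -0.23 (SE 0.0708), Itga3 0.12 (SE 0.077) and Itga6 -0.12 (SE 0.107).

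A further pair of partner genes was picked out after their values were seen. Igsf3, an immunoglobulin superfamily relative of Igsf8, had 4.59, 5.98, 5.3, 5.46 and 5.51 FPKM in the WT and 4.37, 4.61, 4.07 and 3.8 FPKM in the ERβKO ovaries. WT replicate 1 was below ERβKO replicate 2, and the other WT ovaries were above all ERβKO ovaries. Its log2 fold change of -0.36 (SE 0.079, adjusted p = 0.0475, edgeR; 0.00341 with DESeq2) was inside the fold limit, and it was called lower without WT replicate 1. Timp1, a metalloprotease inhibitor that binds Cd63, had the lowest estimate of the list, a log2 fold change of -1.20 (SE 0.38, adjusted p = 0.123, edgeR; 0.0692 with DESeq2). Its FPKM was 45.9, 72, 88.7, 24.2 and 26.7 in WT and 15.8, 18.5, 27.8 and 29.1 in ERβKO ovaries, and WT replicates 4 and 5 lay within the ERβKO range.

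Of the tetraspanins that carry other names, the uroplakins Upk1a and Upk1b were expressed. Upk1a had 36.8 ± 24 FPKM in the WT and 59.4 ± 28 FPKM in the ERβKO ovaries (log2 fold change 0.67, SE 0.450, adjusted p = 0.438, edgeR), a difference within the spread of the ovaries. Upk1b had 19.1 ± 2.3 and 24.4 ± 4.4 FPKM (log2 fold change 0.33, SE 0.120, adjusted p = 0.175, edgeR). Rom1 had 2.3 ± 0.58 and 2.0 ± 0.26 FPKM, and the photoreceptor gene Prph2 was too low to be tested.

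The members lie on 12 chromosomes, and 4 pairs are within 200 kb of each other, Tspan11 with Tspan9, Cd151 with Tspan4, Tspan32 with Cd81 (33.1 kb) and Tspan18 with Cd82 (84.6 kb). In each of these pairs, at most 1 gene was called by either tool. Besides Tspan4 and Tspan31, 8 further members share exon bases with a gene on the opposite strand, from 0.2% to 10.7% of their merged exons, and reads from these stretches cannot be assigned without the strand setting.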

How the data were processed

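The authors sequenced poly-A selected, stranded libraries of whole ovaries as 2 × 150 bp paired reads, trimmed them (Trim Galore), aligned them to GRCm38 with STAR and counted reads per gene with featureCounts. The deposited tables hold these raw counts and, from StringTie, FPKM, TPM and read coverage per gene. The authors' TPM and coverage were not used here. FPKM of entries sharing a gene identifier were summed.

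edgeR 4.0.16 (R 4.3.3) was run on the counts with TMM factors, filterByExpr and its quasi-likelihood test with Benjamini-Hochberg adjustment over 16722 genes (biological coefficient of variation 0.179). DESeq2 1.42.0 and limma 3.58.1 on log2(FPKM + 1) served as alternatives, together with other scaling factors and filters, a replicate block, each ovary left out and the libraries numbered below 200. The scripts were tested on simulated data. SE is the log2 fold change divided by the square root of the test statistic.

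Named genes were every member, with values per ovary for those called by edgeR or DESeq2, those whose FPKM did not overlap, and the 5 highest. Members and lists were chosen with earlier results of these data known. Promoters are from RefSeq (GRCm38.p6), gene models from GENCODE M21, whose coordinates equal the deposited ones for 21 of 27 members. The result of 1 marker list is not reported here.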

Additional observations from a re-analysis of the deposited data

Results flagged for a closer look

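Dixon's test at 95%, a test that chance passes in about 1 in 20 groups, was run on 76 groups of 4 or 5 ovaries. The groups were the members with a value above 0 and the partner genes given with values above, in each genotype. Of those partner genes, Ndp, Igsf3 and Timp1 were not examined. An ovary stood apart from its group in 7 of the 76 groups. In WT ovaries, Tspan13 was 19.4 FPKM in replicate 2 with the others from 8.96 to 11.7, Tspan12 was 9.15 FPKM in replicate 3 with the others from 5.88 to 6.45, and Adam10 was 40.7 FPKM in replicate 3 with the others from 29.5 to 31.9. In ERβKO ovaries, replicate 1 stood apart for Tspan14 (30.7 FPKM, others 35 to 35.4), Tspan9 (17.3 FPKM, others 13.1 to 13.7) and Tspan2 (5.05 FPKM, others 4.01 to 4.17). Tspan1 was 11.8 FPKM in ERβKO replicate 2, with the others from 7.11 to 7.86.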

How the results depend on the processing

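The number of genes called over the whole table was 287 and became 805 with DESeq2 (378 higher and 427 lower), 51 in the libraries numbered below 200 and 39 with limma on unfiltered FPKM. With 1 ovary left out it ran from 60 (without ERβKO replicate 2) to 912 (without WT replicate 2). Called members numbered 4 with DESeq2, 0 in the libraries numbered below 200 and 0 with limma on unfiltered FPKM, and 0 to 5 with 1 ovary left out. Called partner genes numbered 5 with DESeq2, 0 in the libraries numbered below 200, 1 with limma on log2(FPKM + 1), 1 on log2(FPKM + 0.1) and 0 on unfiltered FPKM, and 1 to 4 with 1 ovary left out. The causes were not tested, beyond the smaller number of ovaries or the larger number of genes tested that some of these settings bring by construction.

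Fitting the replicate number as a block called 155 genes and, among members, Tspan11 (adjusted p = 0.0481). Same-numbered ovaries deviated together with correlations of 0.0948, 0.13, -0.0427 and -0.0105, and none was its partner's best match, so the numbers were not taken as pairs. Under the block Vcam1 was no longer called (adjusted p = 0.195).

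Signs turned only for genes that no setting called. Under the block these were Cd81 (0.00942), Tspan8 (0.00187), Tspan7 (0.0193), Cd37 (-0.02) and Fzd4 (0.00787). In the libraries numbered below 200 they were Cd81 (0.000317), Cd9 (-0.0255), Tspan8 (0.102), Tspan7 (0.083), Cd37 (-0.292) and Fzd4 (0.13). With limma on log2(FPKM + 1), with or without the filter, they were Cd81 (0.0164), Tspan7 (0.0688), Cd53 (0.00238), Adam10 (0.0194) and Itga6 (0.0247), and with a pseudocount of 0.1 they were 0.0165, 0.0745, 0.00655, 0.0202 and 0.0242 in the same order. Tspan7 was also at 0.00708 with upper-quartile factors, 0.000261 without a filter and 0.00069 with at least 10 counts in every library.

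With 1 ovary left out, the log2 fold change ran across 0 for Cd81 (-0.0495 to 0.028), Cd9 (-0.00162 to 0.188), Tspan6 (-0.13 to 0.00712), Tspan8 (-0.286 to 0.0184), Tspan7 (-0.0482 to 0.0684), Cd53 (-0.144 to 0.0653), Tspan1 (-0.104 to 0.236), Tspan33 (-0.00476 to 0.348), Cd37 (-0.151 to 0.159), Tspan32 (-0.0519 to 0.365), Adam10 (-0.0488 to 0.0634) and Fzd4 (-0.244 to 0.073). The other named members kept their sign in all these fits. Depth limits Cd37, Tspan32 and Tspan10, the members with fewer than 100 counts in every ovary.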
